A study of Mus musculus with 12 samples.

Results

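White adipose tissue of mice with 2 copies of the Ucp1-CreEvdr transgene was compared with that of mice with 1 copy, gene by gene. The comparison rests on 4 of the 12 libraries of the study, chosen by the tissue and genotype in the labels, 2 for each copy number. Polyadenylated RNA of the inguinal (posterior subcutaneous) depot was sequenced from mice aged 6 weeks, bred in-house from heterozygous carriers, housed on a standard diet at room temperature and taken in the morning with no other treatment. Wild type mice with 0 copies gave a further 2 white libraries, and interscapular brown adipose tissue gave 6 libraries of the same 3 genotypes. In this line, Ucp1 regulatory sequences drive Cre recombinase, and no floxed gene is named in the labels for any group. Whether each library of a pair is a mouse of its own is not stated in the labels, so p-values cover the spread between libraries alone, and that spread may be technical.

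White adipocytes store fatty acids as triglyceride in a lipid droplet and release them by lipolysis when noradrenaline raises cyclic AMP. They take up glucose through the insulin-regulated transporter Slc2a4, make fatty acids from it, and secrete hormones such as leptin and adiponectin. The inguinal depot also contains thermogenic (beige) adipocytes, vessels, progenitor cells and a lymph node, and in females the mammary duct system. Ucp1, the uncoupling protein of brown and beige adipocytes, is normally expressed in the thermogenic cells.

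The 4 compared libraries held 18330209 to 22373009 counted reads. On log2 CPM the 2 libraries of a group correlated with Pearson's r of 0.981 with 2 copies and 0.975 with 1 copy, across genes, which are not independent replicates. CPM values (counts relative to library size) are scaled here with TMM factors. B cell markers such as Ms4a1 were at similar summed levels in both transgenic groups, at 1766 and 1879 CPM with 2 copies and 1826 and 1964 CPM with 1 copy for 10 genes, against 4.25 and 5.09 CPM in wild type. The 19 T cell markers summed to 3062 and 3399 CPM with 2 copies and to 2704 and 2534 CPM with 1 copy, and to 19.6 and 24.8 CPM in wild type. No gene of either list was at 0 in all 4 libraries, and all 19 T cell genes had a positive log2 fold change of 2 copies over 1 copy (median 0.33) with none passing the test. One library stood apart, replicate 1 with 1 copy. It held 3056 CPM of 19 skeletal muscle genes, against 62.1 CPM in replicate 2 with 1 copy and 202 and 46.4 CPM with 2 copies.

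**Figure D1:**
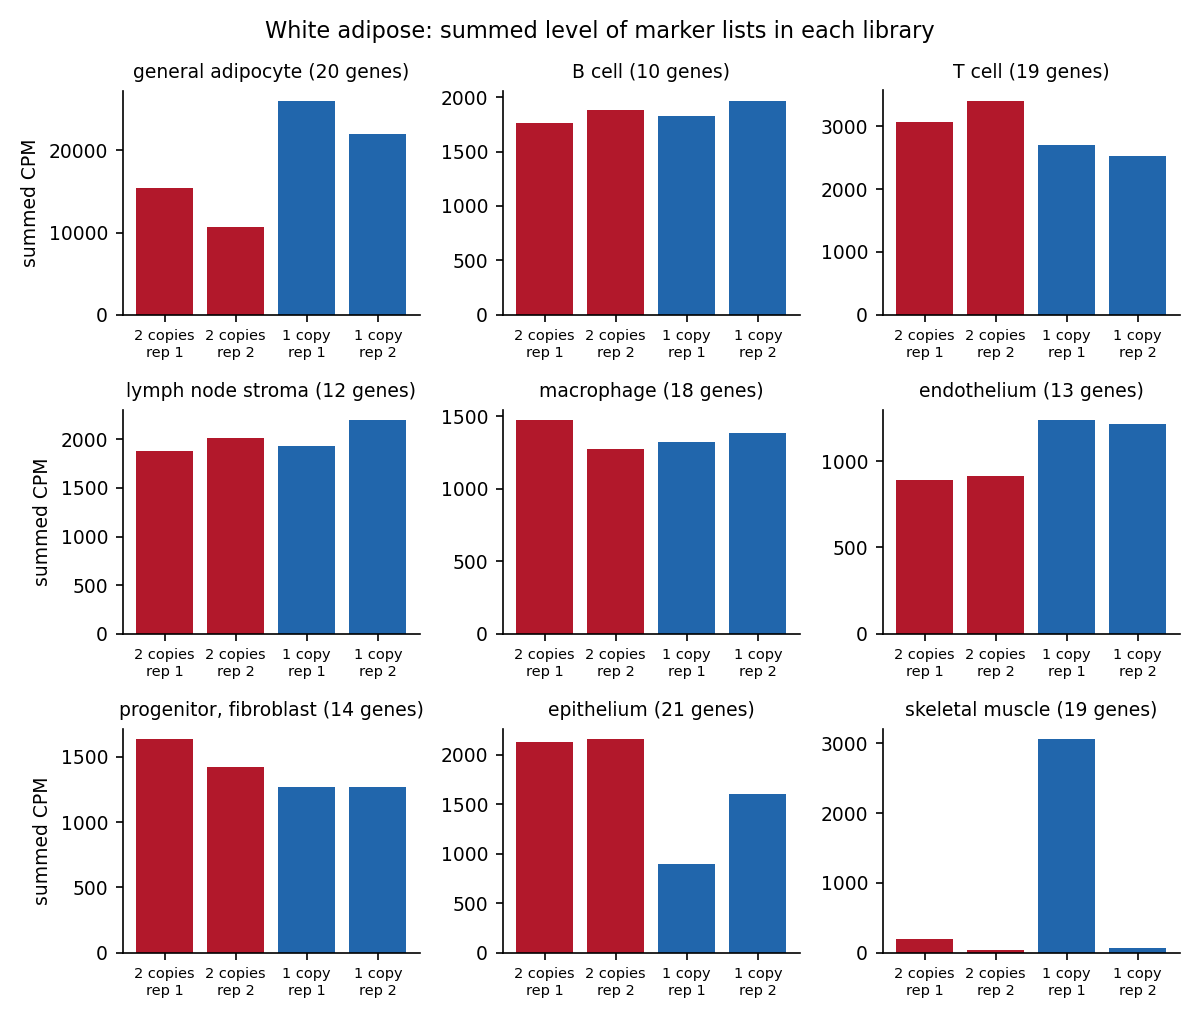
Summed CPM (vertical axis, from 0) of 9 marker lists in each of the 4 white libraries, 2 copies in red and 1 copy in blue. The general adipocyte and endothelial sums are lower in both libraries with 2 copies, the B cell sums overlap, and the skeletal muscle sum is high in replicate 1 with 1 copy.

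Cre reads did not follow the copy number in white adipose. The row for Cre held 0 reads in both libraries with 2 copies, which allows up to 0.162 and 0.139 CPM of the library totals, and 83 and 0 reads with 1 copy. Ucp1 (chr8:83290352-83298452, mm10) had 10 and 4 reads with 2 copies and 2400 and 28 reads with 1 copy. Wild type libraries had 340 and 4267 reads of Ucp1. Both the Cre reads and most Ucp1 reads with 1 copy came from replicate 1, the library with muscle RNA, and the difference in Ucp1 did not pass (log2 fold change -7.38 ± 3.14 (SE), adjusted p = 0.319). Tbc1d9 and Elmod2 flank Ucp1 on the chromosome. Tbc1d9, a gene of the family with Rab GTPase-activating domains, was at 35.4 and 33.9 CPM with 2 copies and 28.4 and 28.9 CPM with 1 copy, with 21.5 and 16.3 CPM in wild type. The transgenic groups did not overlap, yet the difference did not pass (0.27 ± 0.14, adjusted p = 0.362), and neither did that of Elmod2 (0.29 ± 0.15, adjusted p = 0.372). The genotype labels therefore have no check from the transgene's own reads in this tissue. By the same test against wild type, Tbc1d9 was higher with 2 copies (0.88 ± 0.14, adjusted p = 0.00248) and with 1 copy (0.60 ± 0.14, adjusted p = 0.0142). Elmod2 was higher with 2 copies (0.67 ± 0.15, adjusted p = 0.0103) and did not pass with 1 copy (0.38 ± 0.15, adjusted p = 0.0809). Of all genes tested, 32.1% were called higher than wild type with 2 copies and 28.4% with 1 copy. Wild type also held far less lymphoid RNA, so genotype and lymphoid RNA cannot be told apart in these contrasts. In brown adipose Tbc1d9 and Elmod2 were called higher with 2 copies than with 1 copy (1.06 ± 0.14 and 1.09 ± 0.24).

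Most genes called between the copy numbers were lower with 2 copies, among them the glucose transporter Slc2a4, the desaturase Scd1, the lipase Pnpla2 and the amine oxidase Aoc3. Of 15287 genes tested, 280 (1.83%) were called lower and 5 (0.0327%) higher with 2 copies than with 1 copy, 285 (1.86%) in all, at an adjusted p under 0.05 by edgeR's quasi-likelihood test. The median log2 fold change of all genes tested was 0.005, and that of the genes that fell was -0.92, with a range from -3.55 to -0.43. At an unadjusted p under 0.05 there were 809 higher genes (5.29%) and 2064 lower ones (13.5%). Of the 280 genes that fell, 25 belong to any of the gene lists described below. A fall of at least 1 on the log2 scale was found for 110 of the 280. The median level of the genes that fell was 37.6 CPM with 2 copies and 69.2 CPM with 1 copy, and 116.9 CPM in wild type. In bulk tissue, fewer cells of a type and less RNA per cell cannot be told apart.

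These calls need both libraries of each group. None of the called genes overlapped between the groups, so leaving out 1 compared library could hardly reverse a direction. With any single transgenic white library left out, 0 genes were called (1462 at an unadjusted p under 0.05 without replicate 1 with 1 copy, 2417 without replicate 2 with 1 copy, 2112 without replicate 1 with 2 copies and 1721 without replicate 2 with 2 copies, against 2873 with all libraries), while all 285 genes kept their direction in each of these fits. A test against a fold of 1.5 also called 0 genes (654 at an unadjusted p under 0.05), the DESeq2 Wald test called 1230 (205 higher, 1025 lower), the mean of the B and T cell lists as a covariate left 27 (9 higher, 18 lower), and the mean of the epithelial list left 0 (1674 at an unadjusted p under 0.05).

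**Figure D2:**
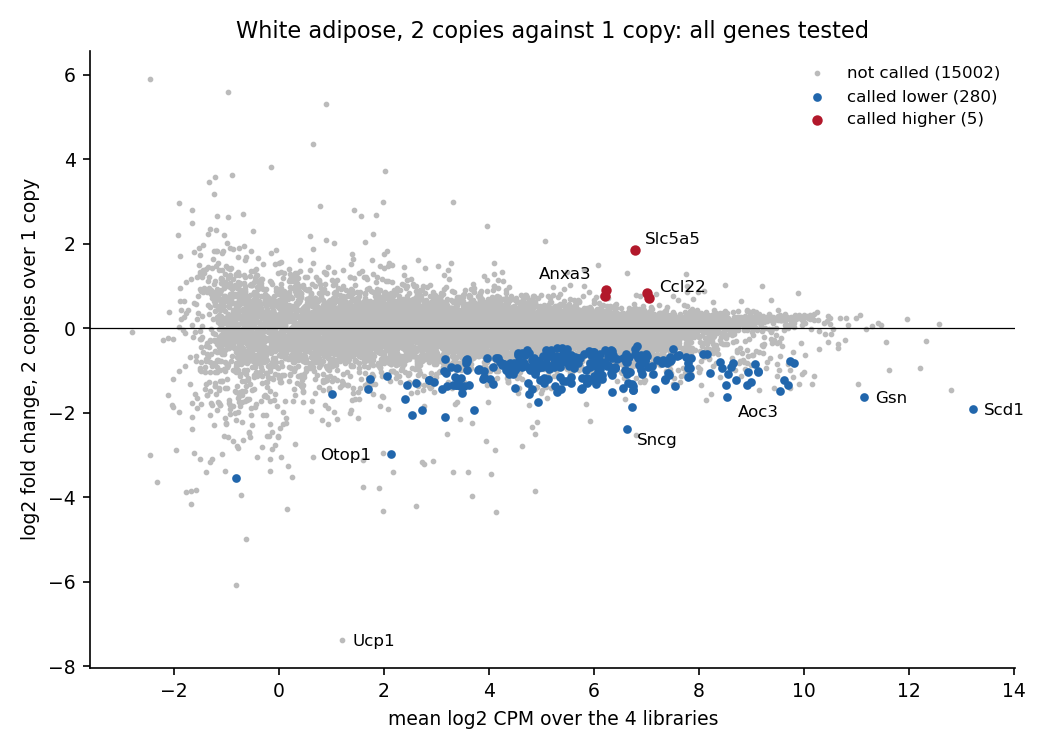
Each point is 1 of 15287 genes, with the mean log2 CPM over the 4 libraries on the horizontal axis and the log2 fold change of 2 copies over 1 copy on the vertical axis. The 280 genes called lower (blue) lie across the range of levels, with Scd1 at the top of it, and the 5 called higher (red) are Slc5a5, Anxa3, S100a6, Basp1 and Ccl22.

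Of 20 general adipocyte genes tested, 7 fell (beside 1.83% of all genes tested), none rose and 13 did not pass, all 20 had negative log2 fold changes, and their median was -1.18, beside 0.005 for all genes tested. Without replicate 1 with 1 copy, the library with muscle RNA, the median was -1.02. The 7 calls became 1 with the lymphocyte covariate and 0 with the epithelial covariate, with any single transgenic white library left out, and against a fold of 1.5. Slc2a4, the insulin-regulated glucose transporter GLUT4, was at 57.7 and 53.6 CPM with 2 copies and 220.3 and 183.6 CPM with 1 copy. Its groups were far apart, and it stood at 27.6% of its 1-copy level (log2 fold change -1.86 ± 0.25, adjusted p = 0.0397). Cd36, a fatty acid transporter, had 564 and 467 CPM with 2 copies and 1244 and 1170 CPM with 1 copy (-1.23 ± 0.14, adjusted p = 0.027). Cebpa, a transcription factor of adipocyte differentiation, had 299 and 253 CPM with 2 copies and 692 and 599.7 CPM with 1 copy (-1.23 ± 0.13, adjusted p = 0.0253). Aqp7, the channel through which adipocytes release glycerol, had 42.1 and 32.4 CPM with 2 copies and 91.2 and 91.6 CPM with 1 copy (-1.30 ± 0.13, adjusted p = 0.022). In each of these 4 genes both libraries with 2 copies lay below both with 1 copy. A separation of the groups held for every called gene and, in either direction, for 56.1% of all genes tested. The other genes of the list that fell were Pnpla2, described below, the lipid droplet coat gene Plin1 (-1.27) and Angptl4 (-1.38). Widely used adipocyte markers missed the threshold, among them Adipoq (-0.98, adjusted p = 0.0718), Fabp4 (-0.98, adjusted p = 0.0638), Pparg (-0.92, adjusted p = 0.0531), Lpl (-1.32, adjusted p = 0.0568) and Lep (-1.67, adjusted p = 0.285). The end nearest to 0 was the adipsin gene Cfd, at -0.30.

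**Figure D3:**
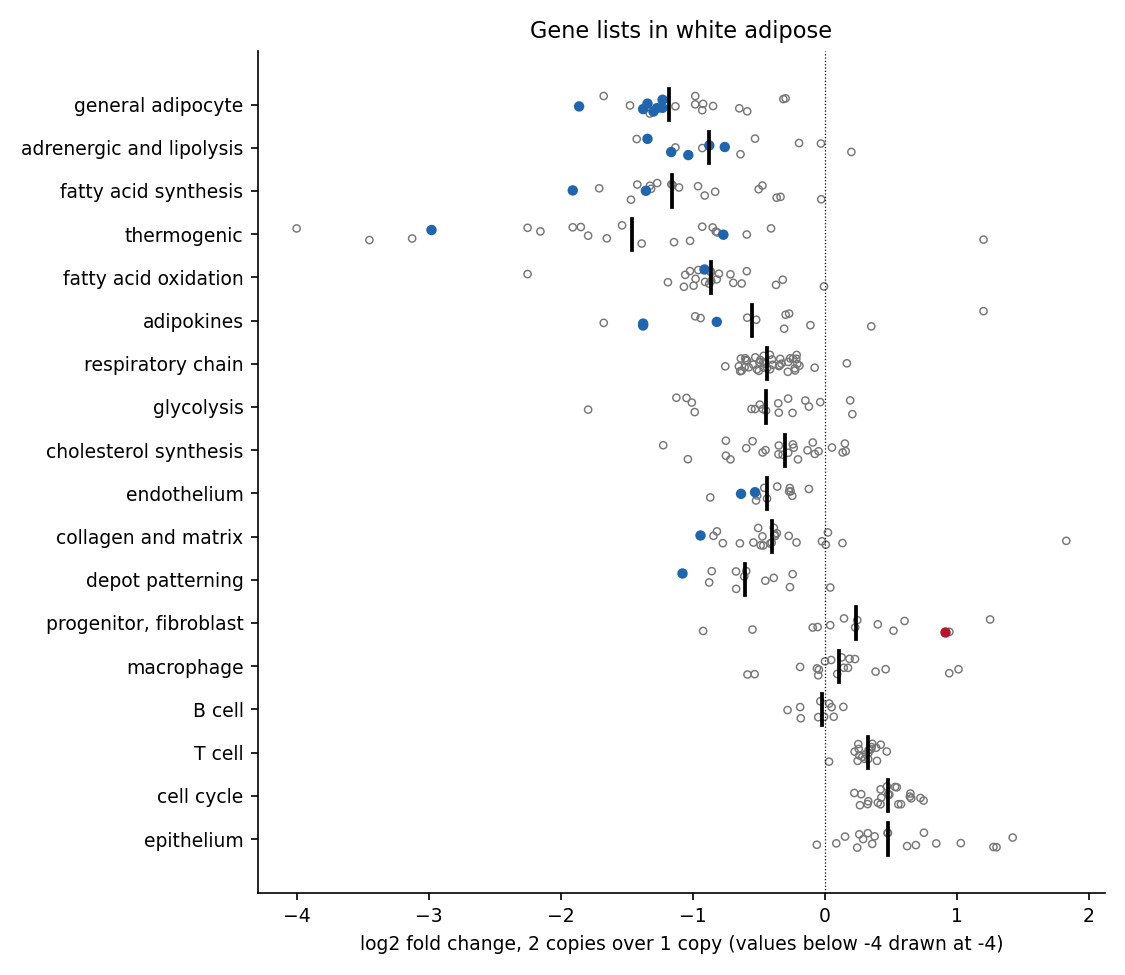
Log2 fold change of 2 copies over 1 copy (horizontal axis) for the tested members of 18 gene lists, with filled points for genes called (blue lower, red higher), open points for genes not called, and a black bar at each list's median. The lists of general adipocyte, fatty acid synthesis and thermogenic genes have medians of -1.18, -1.16 and -1.46, and the T cell, cell cycle and epithelial lists have medians above 0 with no gene called.

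Genes of lipolysis and its hormonal control fell in 5 of 13 cases (beside 1.83% of all genes tested), none rose, and the list's median was -0.87. Pnpla2, the adipose triglyceride lipase, had 604 and 449 CPM with 2 copies and 1455 and 1215 CPM with 1 copy. That is 39.4% of the 1-copy level (-1.34 ± 0.18, adjusted p = 0.0323). G0s2, which inhibits that lipase, fell as well, with 93.3 and 79.2 CPM with 2 copies and 170.3 and 145.6 CPM with 1 copy (-0.87 ± 0.12, adjusted p = 0.0331). Mgll, the monoglyceride lipase of the last step, had 384 and 302 CPM with 2 copies and 767 and 636 CPM with 1 copy (-1.03 ± 0.16, adjusted p = 0.0411). Prkar2b, the regulatory subunit of protein kinase A typical of fat, had 155.8 and 142.6 CPM with 2 copies and 347 and 321 CPM with 1 copy (-1.16 ± 0.11, adjusted p = 0.0217). Pde3b, the phosphodiesterase by which insulin lowers cyclic AMP, also fell (-0.76, adjusted p = 0.0463). So the members that fell were Pnpla2 and Mgll, the inhibitor, the kinase subunit and the phosphodiesterase. The hormone-sensitive lipase Lipe (-1.13, adjusted p = 0.0817) and the adrenergic receptor Adrb3 (-0.93, adjusted p = 0.129) did not pass.

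Among the named genes that fell and had a promoter in the table, Mgll and Prkar2b held a canonical E-box, as did S100a6 among the genes that rose. Promoters (250 bases before to 50 after an annotated start, RefSeq, GRCm38.p6) are shown for Mgll and Prkar2b, 5′ to 3′ on the gene's strand, with the E-box in capitals. Each gene has 2 promoters in the table, and the E-box is in the one shown, at chr6:88724162-88724461 on the plus strand for Mgll and chr12:32061228-32061527 on the minus strand for Prkar2b.
Mgll: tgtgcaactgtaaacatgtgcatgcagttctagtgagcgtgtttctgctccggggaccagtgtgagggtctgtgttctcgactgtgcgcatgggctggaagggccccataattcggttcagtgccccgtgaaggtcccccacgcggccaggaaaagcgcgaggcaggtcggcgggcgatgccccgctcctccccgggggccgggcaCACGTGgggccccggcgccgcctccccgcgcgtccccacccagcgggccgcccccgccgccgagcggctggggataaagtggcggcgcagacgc
Prkar2b: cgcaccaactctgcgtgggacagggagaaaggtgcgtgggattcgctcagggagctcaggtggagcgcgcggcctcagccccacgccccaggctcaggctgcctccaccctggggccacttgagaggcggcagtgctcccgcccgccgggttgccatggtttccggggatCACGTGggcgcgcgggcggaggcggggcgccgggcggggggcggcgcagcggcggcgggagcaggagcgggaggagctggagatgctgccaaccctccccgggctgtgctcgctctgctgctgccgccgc
The letters CACGTG, searched on both strands, were found in 20 of the 209 genes that fell and had a promoter in the table (9.57%) and in 1325 of the 11907 tested genes that had one (11.1%). Only 209 of the 280 genes that fell had a promoter in the table, so the first share does not describe the whole set. Both shares cover only genes with a promoter, and that of the genes that fell was not above that of the tested genes. The difference between the shares was not tested.

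Genes of fatty acid and triglyceride synthesis had a median of -1.16, with 2 of 20 falling (beside 1.83% of all genes tested) and all 20 negative. Scd1, the stearoyl-CoA desaturase, was among the most abundant RNAs of the tissue, with 5181 and 4833 CPM with 2 copies and 22139 and 15442 CPM with 1 copy. Its level was 26.6% of that with 1 copy (-1.91 ± 0.25, adjusted p = 0.0323), and wild type libraries had 30710 and 40349 CPM. Pnpla3, a lipid droplet protein induced by feeding, had 198.5 and 259.5 CPM with 2 copies and 575 and 596 CPM with 1 copy (-1.35 ± 0.18, adjusted p = 0.0323). Neither gene overlapped between the groups, as held for every called gene. Fasn, the fatty acid synthase (-1.47, adjusted p = 0.0585), Acly (-1.32, adjusted p = 0.126), Elovl6 (-1.71, adjusted p = 0.0859) and the regulators Mlxipl (-0.91, adjusted p = 0.0589) and Srebf1 (-0.50, adjusted p = 0.115) did not pass. Elovl5, at the other end, was at -0.03. The 24 cholesterol synthesis genes had a median of -0.30 and the 19 glycolysis genes one of -0.44, with 0 called in each list.

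**Figure D4:**
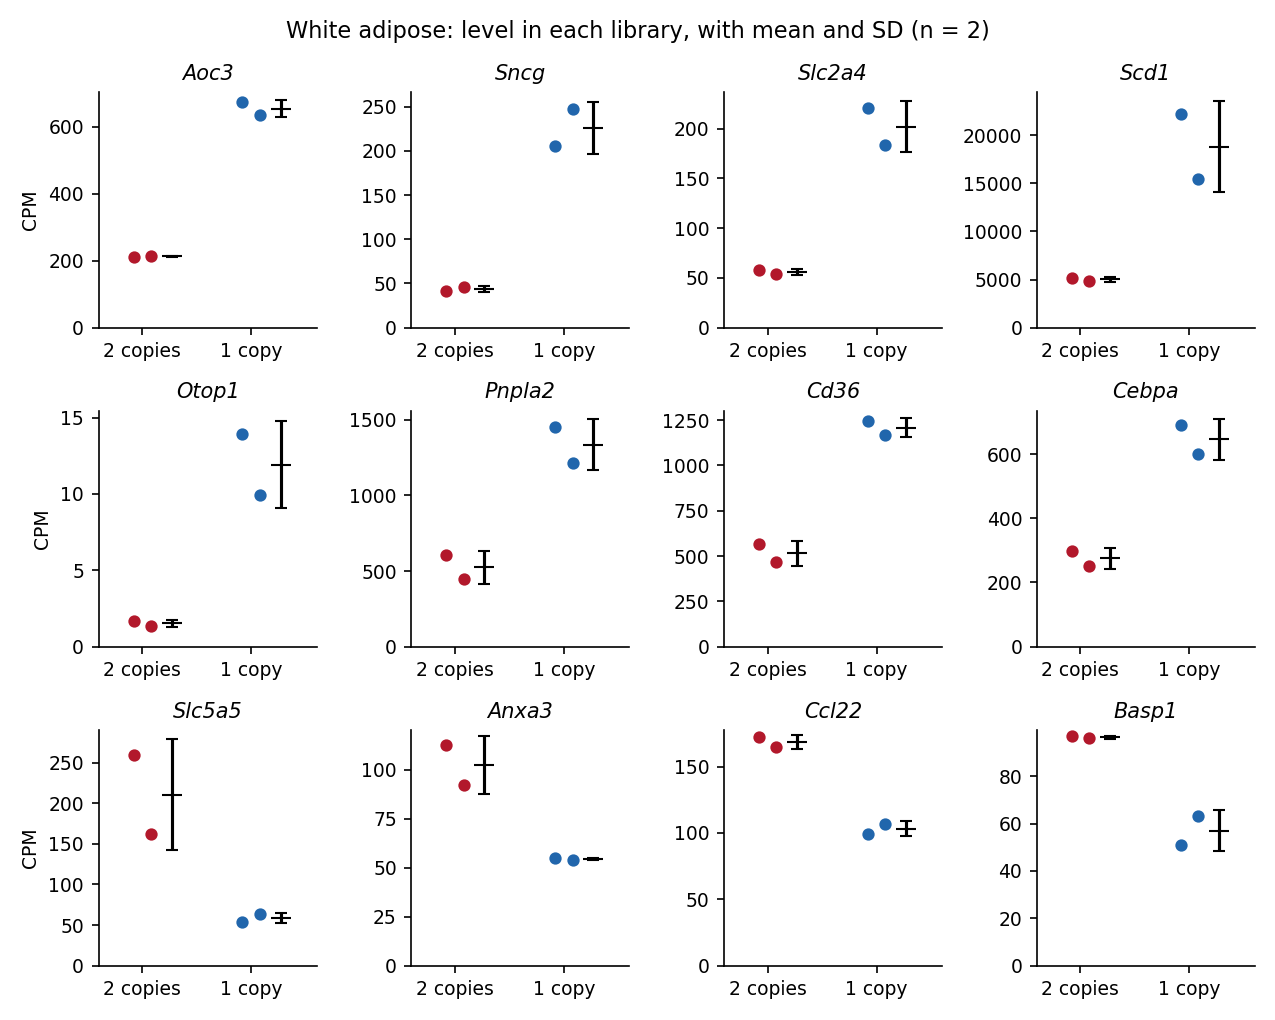
CPM in each white library (points) for 8 genes that fell and 4 that rose, 2 copies in red on the left and 1 copy in blue on the right, with the mean and SD of each pair in black (n = 2). The 2 pairs of points do not overlap for any of the 12 genes, which holds for every called gene. The pairs with 2 copies are lower in the upper 8 panels and higher in the lower 4.

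Mitochondrial fuel use and thermogenic genes were also mostly on the negative side. Of 23 fatty acid oxidation genes, 1 fell (beside 1.83% of all genes tested), and the median was -0.86. That gene was Cpt2, the inner membrane carnitine palmitoyltransferase, with 65.3 and 57.7 CPM with 2 copies and 122.5 and 109.2 CPM with 1 copy (-0.91 ± 0.10, adjusted p = 0.0253). Respiratory chain genes of the nucleus had a median of -0.44, with 40 of 41 negative and 0 called. Of 22 thermogenic genes, 2 fell, beside the same share of all genes tested. Otop1, a proton channel abundant in brown fat, had 1.68 and 1.36 CPM with 2 copies and 13.9 and 9.93 CPM with 1 copy, which was 12.7% of the 1-copy level (-2.98 ± 0.43, adjusted p = 0.0443). Prdm16, a transcriptional regulator of beige and brown identity, had 8.69 and 9.49 CPM with 2 copies and 15.6 and 15.4 CPM with 1 copy (-0.77 ± 0.11, adjusted p = 0.0387). The groups did not overlap in either gene, as held for every called gene. Cidea (-3.45, adjusted p = 0.0945), Cox7a1 (-3.12, adjusted p = 0.108) and Ppargc1a (-1.14, adjusted p = 0.315) did not pass. The list's median was -1.46, -0.77 without replicate 1 with 1 copy and -0.80 with the epithelial covariate, and Bmp8b at its other end was at 1.20 (adjusted p = 0.458). Cox7a1, Cpt1b and Pdk4 are also expressed in muscle, and the skeletal muscle sum was high in 1 of the 2 libraries with 1 copy; its part in these values was not tested.

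The largest falls included genes of varied function. Aoc3, the amine oxidase of the adipocyte surface also known as vascular adhesion protein 1, had 211 and 214 CPM with 2 copies and 672 and 636 CPM with 1 copy. The libraries of a group lay close together and the groups far apart. No gene tested had a smaller adjusted p than Aoc3 (-1.62 ± 0.09, adjusted p = 0.0142). Sncg, which encodes gamma-synuclein, had 41.0 and 45.9 CPM with 2 copies and 205.4 and 247 CPM with 1 copy (-2.38 ± 0.23, adjusted p = 0.0253). Gsn, the actin-severing protein gelsolin, had 1511 and 1111 CPM with 2 copies and 4059 and 4005 CPM with 1 copy (-1.62 ± 0.18, adjusted p = 0.0259). Slc24a3, a potassium-dependent sodium and calcium exchanger, had 15.5 and 17.6 CPM with 2 copies and 61.1 and 51.3 CPM with 1 copy (-1.76 ± 0.13, adjusted p = 0.0177). The largest falls were picked among genes without overlap between the groups, which made up 56.1% of all genes tested. In these 4 genes the level with 2 copies was 19.2% to 32.5% of that with 1 copy. The liver-type glycogen synthase Gys2 (-2.10, adjusted p = 0.0348), the klotho family member Lctl (-2.05, adjusted p = 0.0331), the metalloproteinase inhibitor Timp4 (-1.94, adjusted p = 0.0301), the apoptosis repressor Nol3 (-1.93, adjusted p = 0.0217) and Mamdc2 (-1.56, adjusted p = 0.0383) fell as well, each at a mean of 25.8 CPM or less in both groups.

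Set against wild type in the same fit, Aoc3 and Cd36 were lower with either copy number, and lowest with 2 copies. The 2 contrasts share the wild type libraries with each other and the transgenic libraries with the comparison above, so their values are given side by side only. Wild type libraries also held far less lymphocyte RNA, with B cell markers at 4.25 and 5.09 CPM against 1766 to 1964 CPM in the transgenic libraries. In white adipose, genotype and lymphoid RNA thus cannot be told apart in any contrast with wild type. Of the genes tested, 61% differed from wild type with 2 copies (32.1% higher and 28.9% lower) and 52% with 1 copy (28.4% higher and 23.6% lower). Aoc3, at 1174 and 1107 CPM in wild type, had log2 fold changes of -2.42 ± 0.10 with 2 copies (adjusted p = 1.39e-05) and -0.80 ± 0.09 with 1 copy (adjusted p = 0.00109). For Cd36, at 2676 and 2317 CPM in wild type, they were -2.27 ± 0.15 with 2 copies and -1.05 ± 0.14 with 1 copy (adjusted p = 8.41e-05 and 0.00194). Nr1d1, the clock repressor REV-ERB alpha, showed another order. It had 40.3 and 56.6 CPM with 2 copies and 116.9 and 161.4 CPM with 1 copy (-1.52 ± 0.23, adjusted p = 0.0478), with 89.7 and 76.5 CPM in wild type. Relative to wild type it fell with 2 copies (-0.78 ± 0.23, adjusted p = 0.0288) and rose with 1 copy (0.74 ± 0.22, adjusted p = 0.0376). It was the 1 gene of 14 clock repressors and output genes that was called between the copy numbers, beside 1.86% of all genes tested. That call was lost when either wild type library was left out. Enpp2, which encodes the lysophospholipase autotaxin and is made by adipocytes and by lymph node venules, had the same order of levels, with 139.6 and 135.3 CPM with 2 copies, 231 and 210.5 CPM with 1 copy (-0.68 ± 0.09, adjusted p = 0.0323) and 163.7 and 173 CPM in wild type.

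Secreted factors, vessels, matrix and patterning genes had 1 to 3 calls in each list, all lower, beside 1.83% of all genes tested. A single call in a list this short does not describe the list. Of 14 adipokine genes 3 fell. Rbp4, the retinol carrier, had 69.9 and 63.3 CPM with 2 copies and 194.7 and 150.6 CPM with 1 copy (-1.37 ± 0.15, adjusted p = 0.0253). Angptl4, an inhibitor of lipoprotein lipase, had 132 and 102.5 CPM with 2 copies and 324 and 285 CPM with 1 copy (-1.38 ± 0.21, adjusted p = 0.0478). Rarres2, which encodes chemerin, had 48.0 and 44.7 CPM with 2 copies and 76.4 and 86.8 CPM with 1 copy (-0.82 ± 0.13, adjusted p = 0.0455). The smallest of these changes, that of chemerin, was outside the spread of either pair of libraries, and no called gene overlapped between the groups. Among 13 endothelial genes, VE-cadherin (Cdh5) had 154.3 and 161.8 CPM with 2 copies and 246 and 244 CPM with 1 copy (-0.63 ± 0.09, adjusted p = 0.0331), and the angiopoietin receptor Tek had 30.6 and 29.4 CPM with 2 copies and 42.7 and 43.8 CPM with 1 copy (-0.53 ± 0.07, adjusted p = 0.0373). All 13 endothelial genes were negative (median -0.44), and Pecam1 did not pass (-0.25, adjusted p = 0.18). Cspg4, the pericyte proteoglycan NG2 (-0.91 ± 0.11, adjusted p = 0.0293), the basement membrane collagen Col15a1 (-0.94 ± 0.16, adjusted p = 0.0491) and the posterior patterning gene Hoxc8 (-1.08 ± 0.10, adjusted p = 0.0217) were the only genes called in their lists of 10 smooth muscle and pericyte, 23 matrix and 12 patterning genes. Hoxc8 was at 19.1 and 21.3 CPM with 2 copies and 44.9 and 40.7 CPM with 1 copy.

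The 5 genes that rose came from different settings. Slc5a5, the sodium iodide symporter of thyroid and mammary epithelium, had 258.7 and 162.1 CPM with 2 copies and 54.3 and 63.3 CPM with 1 copy (1.84 ± 0.28, adjusted p = 0.0493). Wild type libraries had 192.6 and 269 CPM, so that the libraries with 1 copy were the low ones. Anxa3, an annexin used here as a marker of adipocyte progenitors, had 113 and 92.3 CPM with 2 copies and 54.9 and 54.1 CPM with 1 copy (0.91 ± 0.12, adjusted p = 0.0323), with 125 and 110.5 CPM in wild type. S100a6, the calcium-binding protein calcyclin, had 185.1 and 163.6 CPM with 2 copies and 84.8 and 110.5 CPM with 1 copy (0.84 ± 0.14, adjusted p = 0.0491), with 197 and 199 CPM in wild type. In these 3 genes 2 copies did not differ from wild type by the test (adjusted p = 0.69, 0.188 and 0.29), while 1 copy was below it (adjusted p = 0.0034, 0.000886 and 0.00209). The calls of Slc5a5 and S100a6 between the copy numbers were lost when either wild type library was left out. Basp1, a membrane-bound signalling protein, had 96.9 and 96 CPM with 2 copies and 50.8 and 63.1 CPM with 1 copy (0.76 ± 0.11, adjusted p = 0.0396), with 65.3 and 63.2 CPM in wild type. Ccl22, a chemokine that dendritic cells make to attract T cells, had 172.1 and 164.4 CPM with 2 copies and 99.2 and 107.1 CPM with 1 copy (0.71 ± 0.11, adjusted p = 0.047), and 0.425 and 0.749 CPM in wild type. The summed T cell markers were likewise higher in both libraries with 2 copies, and the 21 epithelial markers summed to 2125 and 2156 CPM with 2 copies and 893 and 1600 CPM with 1 copy; their part in these rises was not tested.

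The next genes by unadjusted p among the rises just missed the threshold. The progesterone receptor Pgr had 83.6 and 59.9 CPM with 2 copies and 24.1 and 32.8 CPM with 1 copy (1.34 ± 0.21, adjusted p = 0.0512), with 85.5 and 89.1 CPM in wild type. The chondroitin synthase gene Chsy3 was low throughout, with 7.82 and 4.59 CPM with 2 copies and 1.488 and 1.503 CPM with 1 copy (2.05 ± 0.35, adjusted p = 0.0503). Both pairs stood apart without a call. Dsc2, a desmosomal cadherin (1.13, adjusted p = 0.0585), Tuft1 (0.93, adjusted p = 0.0647), Erdr1 (0.85, adjusted p = 0.0529), the growth factor binding protein Igfbp2 (0.75, adjusted p = 0.0614) and the dUTPase gene Dut (0.47, adjusted p = 0.0666) also had no overlap between the groups. All of these uncalled genes were picked among genes without such overlap, which made up 56.1% of all genes tested. Erdr1 had no single position in the annotation, so its reads may be split among copies.

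Immune, epithelial and proliferation lists held almost no call. The 10 B cell genes had a median of -0.02, from Cr2 at -0.28 to Pax5 at 0.14, and the 9 NK cell genes a median of 0.47, from Tbx21 at 0.13 to Gzmb at 1.16 (adjusted p = 0.0843). The 21 cell cycle genes were all positive, with a median of 0.48, from Tyms at 0.23 to Aurkb at 0.75, and did not overlap between the groups. That absence of overlap is common here, since 56.1% of all genes tested (8579) did not overlap between 2 libraries and 2. The 21 interferon response genes were all positive too (median 0.26), and the 18 macrophage genes had a median of 0.11, from Mertk at -0.58 to Fcgr1 at 1.01. The macrophage median was -0.07 when the transgenic libraries were scaled to equal lymphocyte genes and -0.09 without replicate 1 with 2 copies. With the lymphocyte covariate the macrophage median was 0.87 and the interferon median 1.03, and the interferon median was 0.59 with the epithelial covariate and 0.08 with lymphocyte genes set equal. The B cell median was 0.08 with library totals only. The 19 tested epithelial genes had a median of 0.48, from Lalba at -0.06 to Krt15 at 1.42, and 0 were called. Their median was 0.19 without replicate 1 and 0.92 without replicate 2 with 1 copy. It was 0.74 without replicate 1 and 0.21 without replicate 2 with 2 copies, and 0.09 with the lymphocyte covariate. The epithelial covariate is the mean of this same list, so the median of 0.02 with it follows from the adjustment.

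The same step in copy number in brown adipose was compared with that in white adipose in 1 fit of all 12 libraries. Of 15559 genes tested there, the effect of the second copy in white minus that in brown was called for 591 (3.8%), below 0 for 451 (2.9%) and above 0 for 140 (0.9%). Brown adipose alone had 796 calls (5.12%) between the copy numbers, 438 higher (2.82%) and 358 lower (2.3%). The 280 genes that fell in white adipose had a median log2 fold change of -0.13 in brown, beside -0.02 for all genes tested. Of these 280, 25 were also called lower in brown and 11 were called higher there. The depot difference was called below 0 for 134 of the 280 and above 0 for 1. The 280 were chosen by their fall in white, which enters the depot difference, so this imbalance follows from the choice. For the general adipocyte list it was called below 0 in 8 of 20 genes, and the brown median of the list was -0.01. It was called below 0 in 7 of 20 fatty acid synthesis, 7 of 23 fatty acid oxidation and 8 of 24 cholesterol synthesis genes, and in 0 of 41 respiratory chain genes. In that order, the brown medians of these lists were 0.21, 0.08, 0.55 and -0.17, beside white medians of -1.16, -0.86, -0.30 and -0.44. The number of genes with a called depot difference depended on the library left out. It fell least without brown replicate 1 with 2 copies or white replicate 2 with 1 copy. Without brown replicate 1 or 2 with 1 copy 25 and 36 genes were called, without white replicate 1 with 1 copy 59, without white replicate 1 or 2 with 2 copies 319 and 66, and without brown replicate 2 with 2 copies 224.

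Genes of lipid handling are among those with a called depot difference, with values here from the fit of all 12 libraries. Ffar4, a receptor for long-chain fatty acids, fell in white (-0.71 ± 0.17, adjusted p = 0.0448) and rose in brown adipose (1.90 ± 0.17, adjusted p = 0.0012), a difference of -2.61 ± 0.24 (adjusted p = 0.00344). Brown libraries had 127 and 108 CPM of it with 2 copies and 25.6 and 37.3 CPM with 1 copy. Mgll also went opposite ways, at -1.04 ± 0.18 in white (adjusted p = 0.0123) and 0.80 ± 0.18 in brown (adjusted p = 0.0361), as did Marc1, a mitochondrial reductase, at -1.85 ± 0.41 in white (adjusted p = 0.0351, against 0.0597 in the fit of the 6 white libraries) and 1.90 ± 0.40 in brown (adjusted p = 0.0345). Slc2a4 fell in white, was at -0.01 ± 0.22 in brown, and differed between depots (-1.85 ± 0.32, adjusted p = 0.019). Aqp7, Cd36 and Pnpla2 also had small, uncalled values in brown (-0.0035, 0.10 and 0.08) and differed between depots by -1.30 ± 0.18, -1.33 ± 0.20 and -1.42 ± 0.24 (adjusted p = 0.0108, 0.0128 and 0.0171). A shared direction was seen in others. Lctl fell in both depots (-2.06 ± 0.24 in white and -1.27 ± 0.20 in brown), and so did Angptl4 (-1.38 ± 0.26 in white and -1.24 ± 0.26 in brown) and Enpp2 (-0.69 ± 0.10 in white and -0.62 ± 0.10 in brown). Their depot differences did not pass (adjusted p = 0.185, 0.895 and 0.861).

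**Figure D5:**
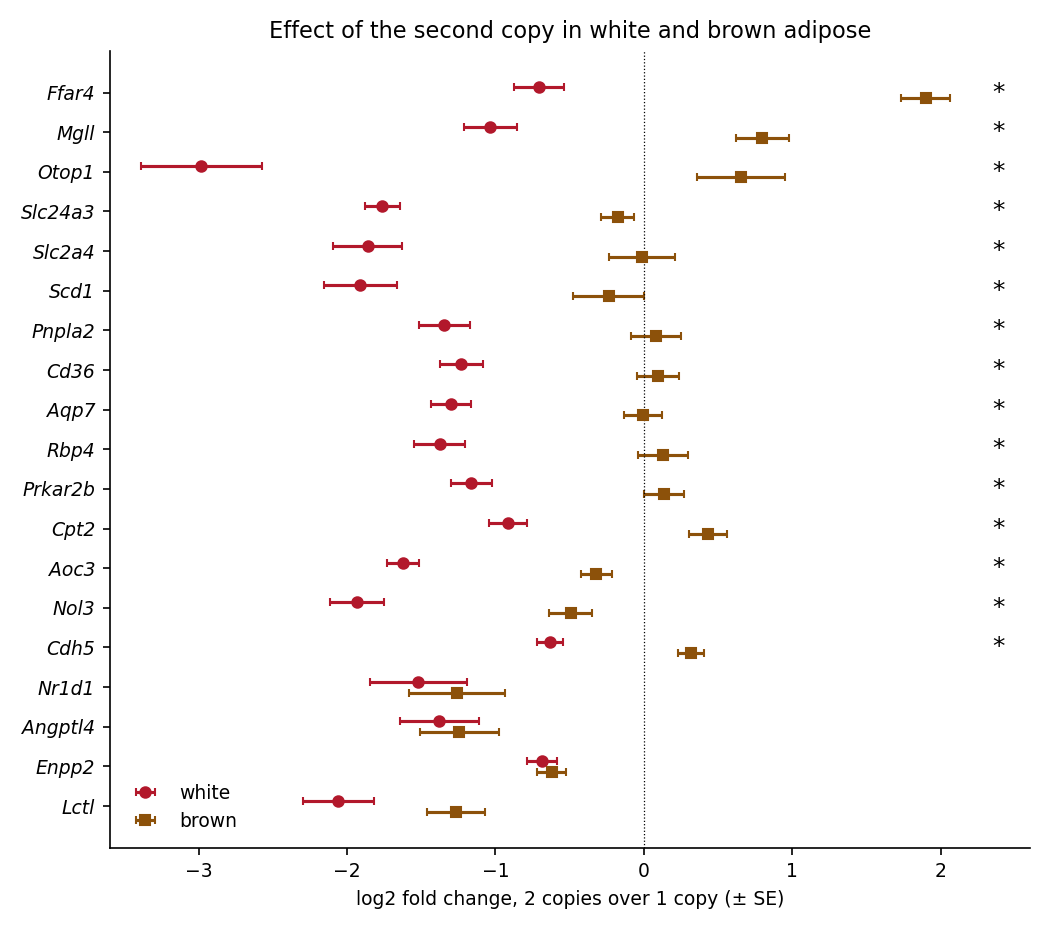
Log2 fold change of 2 copies over 1 copy with its SE (horizontal axis) for 19 named genes in white (red circles) and brown adipose (brown squares), from the fit of all 12 libraries, with a star where the difference between depots was called. Ffar4 and Mgll lie on opposite sides of 0 in the 2 depots, and Angptl4 and Enpp2 have overlapping errors.

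On the other side, the effect in white lay above that in brown for Igfbp2, Urah, Gzmb, Dbp and Slamf7, the 5 largest such differences among called genes with a mean log2 CPM of at least 1 and no overlap between the white groups. Dbp, an output gene of the clock, was at -0.67 ± 0.25 in white (adjusted p = 0.193) and -3.27 ± 0.27 in brown (adjusted p = 0.0012). Slamf7 and Gzmb, genes of cytotoxic and other lymphocytes, were near 0 in brown, with Slamf7 at 0.214 and 0.313 CPM with 2 copies and 1.21 and 1.49 CPM with 1 copy there. Igfbp2 and Urah were at 2.69 CPM or less in all 4 brown libraries. For these 4 genes the depot difference thus rests on very low brown counts.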

How the data were processed

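Polyadenylated RNA was measured in 12 libraries of mouse adipose tissue, 2 for each of 3 genotypes in 2 depots. Per the labels' protocols, RNA was extracted with Trizol and columns and libraries were made with a stranded mRNA kit. The submitters' processing notes name STAR, Subread and featureCounts, and the build mm10. What the authors deposited were unnormalized whole-number counts for 24541 rows of genes. Versions, annotation and strand setting are not given in the sources used here, so reads of overlapping or antisense genes may be mixed. The Cre and loxP rows are in the deposited table, and the loxP row held 0 counts in all white libraries. Replicate numbers follow the order of the samples and pair nothing.

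The 6 white libraries were fitted with 3 genotypes (3 residual degrees of freedom) by edgeR 4.0.16 (robust quasi-likelihood test, two-sided, filterByExpr, TMM factors 0.922 to 1.09, biological coefficient of variation 0.159) in R 4.3.3, with Benjamini-Hochberg adjustment over all genes tested and a threshold of 0.05. The depot difference came from 1 fit of 12 libraries. SE is the log2 fold change divided by the square root of F. The alternative test was DESeq2 1.42.0, and the code was tested on simulated data. Counts per gene differed within each white group by more than sampling noise (chi-square per degree of freedom 15.4 to 37.7), and limits for a count of 0 (3 counts) cover counting error only. Gene positions are from GENCODE (mm10) for 53 of 55 named genes. Figures used Python 3.11.15 and matplotlib 3.10.9.

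Named genes were Cre, Ucp1, Tbc1d9, Elmod2, the 12 largest falls and the largest rises (mean log2 CPM of at least 1, no overlap between groups, plain symbol; rises were filled up to 12 by unadjusted p), up to 4 called members of each list, and the 5 largest depot differences in each direction. Plin1, Pde3b and list members given without a call beyond each list's ends were named after their values were seen. The comparison and the gene lists were chosen with earlier results of these data known, and lists were described by counts and medians with no set test. The lists of lymph node stroma (12 genes, 1 fell), dendritic cells (13 genes, 1 rose) and progenitors (14 genes, 1 rose) are given by their called genes, Enpp2, Ccl22 and Anxa3. Of all genes tested, 1.83% fell and 0.0327% rose. The lists of heat shock, unfolded protein response, p53, nerve, blood and mast cell genes had 0 calls.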

Additional observations from a re-analysis of the deposited data

Results flagged for a closer look

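In the fit of all 12 libraries, 24 named genes had an effect of the second copy that differed between white and brown adipose by the test of the difference itself (edgeR's quasi-likelihood test, adjusted p under 0.05). Of all 15559 genes tested there, 591 (3.8%) passed. The 24 had been named for their values in white or for passing this test, so their number follows from the naming rule. Values are the log2 fold change of 2 copies over 1 copy in white minus that in brown. Among genes of fat storage and release the difference was -1.85 for Slc2a4, -1.33 for Cd36, -1.30 for Aqp7, -1.42 for Pnpla2, -1.83 for Mgll, -1.30 for Prkar2b, -1.67 for Scd1 and -1.51 for Rbp4. It was -1.35 for Cpt2, -2.52 for Gys2, -2.61 for Ffar4 and -3.75 for Marc1. Other genes below 0 were Otop1 (-3.64), Nol3 (-1.44), Slc24a3 (-1.58), Aoc3 (-1.30), the endothelial cadherin Cdh5 (-0.95) and the cyclin-dependent kinase regulator Cables1 (-2.45). Cables1 was not called in white (-0.49 ± 0.17, adjusted p = 0.154) and was called higher with 2 copies in brown (1.95 ± 0.17, adjusted p = 0.0012).

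The difference was above 0 for Basp1 (1.77), Igfbp2 (4.10), Urah (3.50), Gzmb (2.94), Dbp (2.597) and Slamf7 (2.56). Basp1 was higher with 2 copies in white and lower in brown, where its level was 1.43 and 1.19 CPM with 2 copies and 2.42 and 2.84 CPM with 1 copy.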

How the results depend on the processing

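All 285 genes called between 2 copies and 1 copy in white adipose kept their direction in each alternative that gave them a value, while the count of calls moved widely. None of the 285 overlapped between the groups, so most alternatives could hardly reverse a direction. The DESeq2 Wald test gave 1230 calls (205 higher, 1025 lower), the 4 compared libraries alone 765 (127 higher, 638 lower), the fit of all 12 libraries 780 (30 higher, 750 lower), the lymphocyte covariate 27 (9 higher, 18 lower, with 11 of the 27 shared), and a fold of 1.5 and the epithelial covariate 0 each. The share of calls that were lower was 98.2% in the reported fit, 83.3% by DESeq2, 83.4% with 4 libraries and 66.7% with the lymphocyte covariate. No filter on low counts left 8 higher, and median-of-ratios scaling 3 higher. A mean CPM of at least 1 and leaving out lymphoid genes stayed within 1.5 times the count. Scalings chosen after seeing the data gave 112 calls with library totals only (3 higher, 109 lower, all genes shifted by a median of 0.11) and 1222 with lymphocyte genes set equal (8 higher, 1214 lower, median shift -0.18). The 7 general adipocyte calls became 16 by DESeq2, 14 with 12 libraries, 14 with lymphocyte genes set equal, 1 with the lymphocyte covariate, and 0 with a fold of 1.5 or the epithelial covariate. The depot difference had 1126 calls (342 above 0, 784 below) with the 8 transgenic libraries only. The cause of these shifts was not tested.

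Leaving out single libraries gave 0 to 586 calls (0 to 61 higher, 0 to 525 lower), 0 to 10 in the general adipocyte list, and 25 to 456 for the depot difference (3 to 84 above 0, 22 to 393 below). All 38 named genes with a call lost it without any single transgenic white library, and 3 lost it without either wild type library. A lone library is assumed there to vary like the others. No called result changed direction. For genes called in white adipose this follows largely from the lack of overlap between the groups. Of the list medians, that of the general adipocyte genes (-1.18) was -0.81 with the lymphocyte covariate and -1.35 with lymphocyte genes set equal, and that of the matrix genes (-0.40) was 0.01 with the lymphocyte covariate. No paired analysis was possible because the labels give no replicate numbers shared by the groups and do not say which libraries came from the same mouse. Each group had only 2 libraries, of 18330209 reads or more in white adipose and 15679884 or more in brown.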

Other observations

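Some genes of mammary and other epithelium were low in the libraries with 1 copy and higher with 2 copies, without a call. They were picked after their values were seen and were not tested as a group. The luminal keratin Krt8 had 367 and 332 CPM with 2 copies and 86.4 and 202 CPM with 1 copy, with 529 and 453 CPM in wild type. Krt18, its partner, had 300.4 and 299.3 CPM with 2 copies and 118 and 215.5 CPM with 1 copy, with 380.1 and 413 CPM in wild type. Areg, a growth factor of the mammary duct, had 114 and 36.2 CPM with 2 copies and 12.9 and 23.2 CPM with 1 copy, with 178 and 108 CPM in wild type. The estrogen receptor Esr1 had the other order between the transgenic groups, with 48.8 and 65.6 CPM with 2 copies and 66.9 and 79.2 CPM with 1 copy.

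The keratins Krt15 and Krt5 differed between the libraries within both groups. Krt15 had 5.38 and 35.1 CPM with 2 copies and 0.676 and 14.7 CPM with 1 copy, and Krt5 had 15.6 and 62.5 CPM with 2 copies and 16.7 and 49.6 CPM with 1 copy. In both genes the second library of each group was the higher one. Other keratins did not share this order with 2 copies, with Krt6a at 13.1 and 2.55 CPM and Krt4 at 27.9 and 1.91 CPM. Krt14 did share it, at 13.7 and 35.6 CPM with 2 copies.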
